A study of Mus musculus with 162 samples.

Results

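The interleukin-1 (IL-1) and interleukin-36 (IL-36) family described here comprised 9 genes out of the 46078 listed in each count file, taken by symbol. They were the agonists Il1a, Il1b, Il18, Il1f6 (IL-36α, now Il36a), Il1f8 (IL-36β, now Il36b) and Il1f9 (IL-36γ, now Il36g), the receptor antagonists Il1rn and Il1f5 (now Il36rn), and the decoy receptor Il1r2. All 9 passed the filter on low counts in every comparison. Expression was measured by RNA-seq in cheek skin of adult male C57BL/6 mice that received MC903 (calcipotriol, a vitamin D analog used to model atopic dermatitis in mice) or its vehicle, and the question asked was which members rose or fell with MC903, when, and in which mice.

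MC903 (20 µL at 0.2 mM in ethanol) or ethanol alone was applied once daily. Uninjected wild-type mice were sampled on Day_1 (6 hours after the first application, 4 MC903 and 4 ethanol libraries), Day_2 (3 and 2), Day_5 (3 and 3) and Day_8 (5 and 6, in label cohorts A with 3 and 3 and B with 2 and 3). At Day_8 there were also wild-type mice given PBS (2 and 3) or 250 µg of aGr1 (4 and 4) by intraperitoneal injection, TSLPR.KO mice (3 and 2) and BLT1.KO mice (3 and 3), and TSLPR.KO mice were sampled again at Day_12 (4 and 3). aGr1 is antibody RB6-8C5 against Gr-1, given repeatedly to deplete neutrophils. It binds Ly6C as well as Ly6G, so that Ly6C-bearing monocytes can also be affected. TSLPR.KO mice carry the Crlf2tm1Jni allele, which removes the receptor of the epithelial cytokine TSLP, backcrossed to C57BL/6, and BLT1.KO mice lack the leukotriene B4 receptor encoded by Ltb4r1. Both knockouts affect every tissue of the animal. PBS-injected mice were the vehicle controls of the antibody.

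IL-1α, IL-1β and the 3 IL-36 agonists each bind a specific receptor chain that recruits the shared accessory protein IL-1RAP, and IL-18 uses a related receptor pair. All of these receptors signal through MyD88 to NF-kB and MAP kinases. IL-1β and IL-18 are made as inactive precursors that caspase-1 cleaves, whereas the IL-1α precursor is already active and IL-36 cytokines are trimmed by neutrophil proteases and cathepsin S. Keratinocytes of the epidermis are a main source of IL-1α, IL-18 and the IL-36 cytokines, whereas IL-1β comes largely from myeloid cells. IL-1Ra (Il1rn) and IL-36Ra (Il1f5) occupy the receptors without signalling, and the decoy receptor IL-1R2 binds IL-1 but has no signalling domain. In skin the family is best known for calling in neutrophils and for pustular psoriasis in people who lack IL-36Ra.

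On mouse build GRCm38, 7 of the 9 genes lie on chromosome 2 and all are protein-coding. The IL-36 and antagonist genes form a cluster on the plus strand: Il1f8 at chr2:24153161-24160519, Il1f9 at chr2:24186476-24193568, Il1f6 at chr2:24215418-24225702, Il1f5 at chr2:24276954-24283426 and Il1rn at chr2:24336853-24351494. Il1a (chr2:129299610-129309972) and Il1b (chr2:129364570-129371139) lie on the minus strand of the same chromosome. Il18 is at chr9:50554827-50581840 and Il1r2 at chr1:40074079-40125231, both on the plus strand. Il1a shares 222 exon bases with the antisense gene Gm14023 and Il1b shares 25 with Il1bos, and since the strand setting of the counting is not given in the sources used here, reads of these stretches could not be told apart. Il18 and Il1r2 overlap other genes outside exons only.

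RefSeq start regions were found for 8 of the 9 members, in 11 entries, and not for Il1f6. The 250 bases before the start are printed for a pair of IL-1 agonists and a pair of IL-36 agonists that rose at both Day_5 and Day_8. Il1f6 and the antagonist Il1f5, not printed, rose on both days as well. All are from GRCm38.p6 and read 5′ to 3′ on the gene's own strand: Il1a at chr2:129309973-129310222 (minus), Il1b at chr2:129371140-129371389 (minus), Il1f8 at chr2:24152922-24153171 (plus) and Il1f9 at chr2:24186226-24186475 (plus). Capitals mark letters that match AP-1 or STAT3.
Il1a: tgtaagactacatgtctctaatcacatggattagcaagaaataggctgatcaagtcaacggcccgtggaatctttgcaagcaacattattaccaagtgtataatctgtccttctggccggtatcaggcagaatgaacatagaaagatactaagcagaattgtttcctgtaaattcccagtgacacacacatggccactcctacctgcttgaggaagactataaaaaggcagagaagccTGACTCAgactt
Il1b: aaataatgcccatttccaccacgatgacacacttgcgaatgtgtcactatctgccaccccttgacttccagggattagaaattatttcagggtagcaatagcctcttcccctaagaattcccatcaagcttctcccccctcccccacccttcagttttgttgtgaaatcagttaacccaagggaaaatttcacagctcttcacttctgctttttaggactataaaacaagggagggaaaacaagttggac
Il1f8: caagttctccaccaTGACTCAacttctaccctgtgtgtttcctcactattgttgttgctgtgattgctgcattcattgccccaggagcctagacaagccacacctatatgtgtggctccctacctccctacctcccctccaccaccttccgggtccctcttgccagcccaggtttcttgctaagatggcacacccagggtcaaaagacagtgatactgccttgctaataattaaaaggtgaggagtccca
Il1f9: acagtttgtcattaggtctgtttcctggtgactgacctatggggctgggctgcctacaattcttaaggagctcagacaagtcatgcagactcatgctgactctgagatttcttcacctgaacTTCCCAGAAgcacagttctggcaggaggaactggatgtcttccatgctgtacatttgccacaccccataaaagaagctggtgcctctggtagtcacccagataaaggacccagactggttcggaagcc
The search covered both strands for AP-1 (TGANTCA, in 6.75% of 32851 start regions of the same length), STAT3 (TTCNNNGAA, 7.02%), C/EBP (TTGCNNAA, 9.56%), NF-kB (by its usual consensus, 3.9%) and the vitamin D receptor half-site (AGGTCA with the accepted forms AGTTCA and also GGGTCA and likewise GGTTCA, 38.6%, left in lower case). Il1a held 1 AP-1 match at bases -12 to -6 from the start. Il1f8 held 1 AP-1 match at -236 to -230 and 1 half-site at -54 to -49, and Il1f9 held 1 STAT3 match at -128 to -120 and 2 half-sites, at -218 to -213 and -133 to -128, the second of which shares its last base with the STAT3 match. Il1b and Il18 held none of the 5. Among the others, Il1r2 held 1 STAT3 match, the first of the 2 Il1f5 entries 1 C/EBP match and the second 1 STAT3 match, and the first of the 3 Il1rn entries 1 AP-1 match and 1 half-site. These are matches of letters in one window, and binding was not measured.

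The 61 skin libraries held 17431296 to 67342879 counts on genes (median 28927563). Levels are cpm, the counts of a gene scaled to library size after TMM scaling, and libraries are listed in the order of their label numbers, at Day_8 cohort B before the cohort A libraries skin1, skin2 and skin4. The Day_2 MC903 library numbered 3 stood apart, with a summed level of 10 sensory neuron markers of 1152 cpm against 15.9 to 21.4 in the other 4 libraries of that day and of 10 keratinocyte markers of 4788 cpm against 8939 to 13560, so Day_2 values are given with and without it. Several other libraries stood apart in summed markers of blood cells, among them Day_1 MC903 library 3 (neutrophil 197 cpm, others 18.3 to 21.4), aGr1 ethanol library 4 (neutrophil 288, others 20.9 to 26.6), aGr1 ethanol libraries 1 and 2 (T cell 125.5 and 93.9, others 16.2 and 23.9) and TSLPR.KO Day_12 ethanol library 3 (neutrophil 345, others 24.7 and 94.5). Without the first of these the Il1f8 call at Day_1 was lost (adjusted p = 0.0683, edgeR), without aGr1 ethanol library 1 Il18 was called lower with aGr1 (0.0477), without library 2 or 4 the Il18 difference between aGr1-injected and uninjected skin was lost (0.061 and 0.0984), and without the TSLPR.KO library the Il1rn call at Day_12 was lost (0.0696) and Il1r2 was called lower (0.0185). Other left-out libraries also moved some of these calls. Crlf2 was between 0.059 and 1.54 cpm in the 12 TSLPR.KO libraries and between 2.07 and 14.9 cpm in the 43 wild-type libraries. Ltb4r1 in BLT1.KO skin at Day_8 was 2.29 to 3.62 cpm with ethanol and 10.1 to 15.6 cpm with MC903, below uninjected wild-type skin of the same treatment (6.59 to 9.66 and 31.7 to 78.2 cpm) but not absent; which part of the gene is deleted is not given in the sources used here. All 10 keratinocyte markers were above 3 counts in every library. The study's methods speak of replicate measurements from treated and control mice, but the sources used here do not tie each library to its own mouse, so the p-values below measure the spread between libraries.

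In uninjected wild-type skin at Day_8 with ethanol, the decoy receptor was the most abundant member and Il1b the least. Compared per kilobase of exon, Il1r2 was at 41.6 ± 10.1 cpm per kilobase (SD, n = 6), Il18 at 19 ± 3.22, Il1f5 at 13.5 ± 2.75, Il1rn at 13.4 ± 1.82, Il1f9 at 12.3 ± 4.41, Il1a at 7.28 ± 1.64, Il1f8 at 2.49 ± 0.51, Il1f6 at 1.97 ± 0.98 and Il1b at 0.639 ± 0.18. Neighbours in this order overlapped between libraries, except Il1r2 and Il18, and Il1a and Il1f8. With MC903 Il1f9 led, at 66.8 ± 11.8 cpm per kilobase (n = 5) and from 53.7 to 85.4 between libraries. It did not overlap Il1r2, next in the order, but the highest Il1b library, at 62.5, lay within its range. Il1f6 was last, at 5.18 ± 1.77, below every library of the member above it. The 7 members ranked between them overlapped their neighbours among themselves: Il1r2 at 30.3, Il1f5 at 27.8, Il18 at 26.4, Il1b at 25.99, Il1f8 at 20.5, Il1rn at 17.2 and Il1a at 17.1 cpm per kilobase. Il1b spread most, from 8.13 to 62.5 cpm per kilobase. The exons of Il1rn (5535 bases) and Il1f5 (4493 bases) were counted at their full annotated union, and which transcripts the skin used was not measured.

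**Figure D1:**
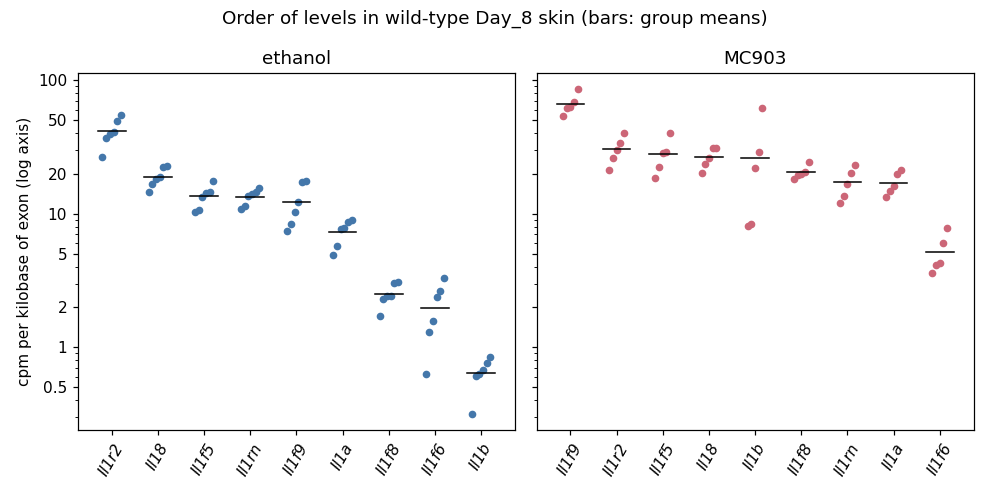
Levels of the 9 members in uninjected wild-type skin at Day_8, in cpm per kilobase of exon on a log axis, one point per library (6 ethanol, 5 MC903), bars at the group means, genes sorted by mean within each treatment. Il1r2 leads at 41.6 in ethanol skin and Il1f9 at 66.8 in MC903 skin, and Il1b moves from last at 0.639 to 25.99.

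In uninjected wild-type skin, 4 members were called lower at Day_1, 7 higher at Day_5 with Il1rn among them, and 7 higher at Day_8 with Il18 called in its place. At Day_1, 4 members were lower with MC903 (Il18, Il1f8, Il1f9 and Il1f5) and none was higher, against 7.47% of all genes lower and 5.51% higher (edgeR's quasi-likelihood test, Benjamini-Hochberg adjusted p under 0.05, here and for every call below). At Day_2 no member was called, and neither was any gene, with 0% higher and 0% lower; 1191 genes had an unadjusted p under 0.05, and DESeq2 called 280 genes, Il1f8 among them. At Day_5, 7 members were higher and Il1r2 was lower, against 8.15% and 6.78% of all genes. At Day_8, 7 members were higher and none lower, against 12.2% and 11.2%. The median log2 fold change of the 9 members was -0.51, 0.04, 2.42 and 1.21 on these 4 days, against 0.00, 0.09, -0.03 and -0.03 for all genes tested. Whole skin was sequenced, so fewer cells of a type and less RNA per cell cannot be told apart in any of these values.

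At Day_8 in the other mice, 3 members were higher and none lower in PBS-injected skin (3.26% and 0.721% of all genes), 5 higher and 1 lower with aGr1 (15.1% and 17.5%), 5 higher and 1 lower in TSLPR.KO skin (1.3% and 1.14%) and 5 higher and 2 lower in BLT1.KO skin (14.1% and 14.6%). At Day_12 in TSLPR.KO skin 7 were higher and none lower (5.41% and 4.62%). The members' median log2 fold change was 0.90 with PBS, 1.05 with aGr1, 1.48 and 2.01 in TSLPR.KO skin at Day_8 and Day_12, and 1.36 in BLT1.KO skin, and that of all genes lay between -0.04 and 0.00. Il1a, Il1b and Il1f8 were higher in all 7 comparisons from Day_5 on. Every Il1f9 MC903 library was also above every ethanol library in these 7, but its adjusted p with PBS was 0.0532 by edgeR (0.00181 by DESeq2).

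**Figure D2:**
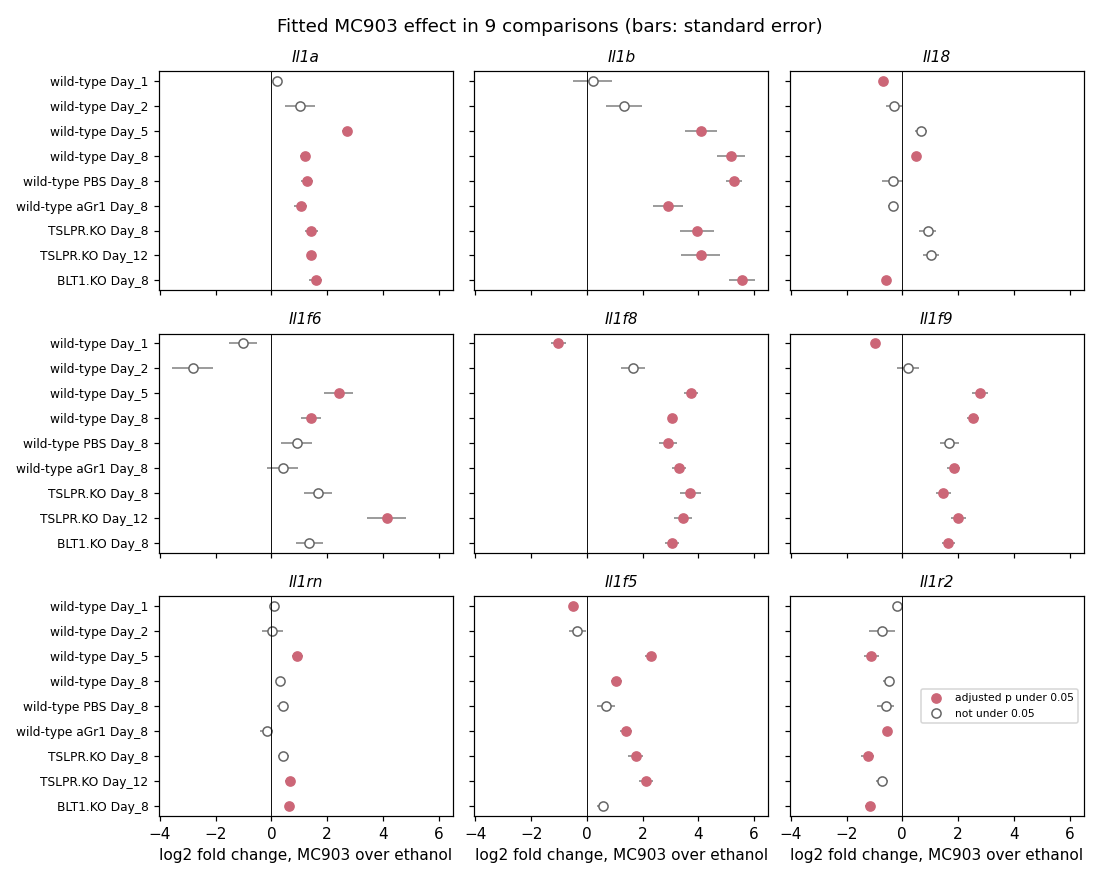
Fitted log2 fold change (MC903 over ethanol, x axis) of each member in 9 comparisons (y axis), with bars for the standard error; filled points have an adjusted p under 0.05. Il1b and Il1f8 lie far to the right from Day_5 on, Il1r2 lies left of 0 throughout, and Il18 changes side between groups.

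Il1b, the myeloid IL-1 agonist, had the largest fitted rise of the family at Day_5 and Day_8 in uninjected wild-type skin. At Day_1 Il1b was at 0.899, 5.04, 0.973 and 1.24 cpm with MC903 and at 0.770, 0.699, 4.25 and 1.20 cpm with ethanol. One library of each treatment stood above the rest, and the groups overlapped, with a log2 fold change of 0.21 (SE 0.70, adjusted p = 0.868). At Day_2 Il1b was at 2.99, 1.22 and 1.68 cpm with MC903 and at 1.01 and 0.547 cpm with ethanol. The MC903 libraries were higher without overlap, which did not pass the test, with a log2 fold change of 1.34 (SE 0.63, adjusted p = 0.898) and, without MC903 library 3, 1.43 (adjusted p = 0.586). At Day_5 Il1b was at 14.9, 14.6 and 5.20 cpm with MC903 and at 1.08, 0.273 and 0.619 cpm with ethanol. Every MC903 library exceeded every ethanol library, with a log2 fold change of 4.10 (SE 0.58, adjusted p = 0.00416). At Day_8 Il1b was at 15.5, 42.001, 55.3, 15.9 and 119.2 cpm with MC903 and ranged from 0.604 to 1.60 cpm (median 1.24) with ethanol. MC903 libraries were again all above ethanol but spread widely, from 15.5 cpm in cohort B library 1 to 119.2 cpm in library skin4, with a log2 fold change of 5.18 (SE 0.50, adjusted p = 1.27e-05).

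Il1b rose in each of the other groups of mice as well, without overlap between treatments. In PBS-injected mice Il1b was at 45.4 and 62.7 cpm with MC903 and at 1.05, 1.62 and 1.58 cpm with ethanol. Both MC903 libraries lay within the range of uninjected wild-type MC903 skin, with a log2 fold change of 5.27 (SE 0.28, adjusted p = 0.00119). In aGr1-injected mice Il1b was at 7.38, 2.25, 16.3 and 9.47 cpm with MC903 and at 1.34, 1.18, 0.836 and 1.27 cpm with ethanol. All but the third aGr1 library lay below the lowest uninjected or PBS-injected MC903 library, with a log2 fold change of 2.91 (SE 0.53, adjusted p = 0.00335). In TSLPR.KO mice at Day_8 Il1b was at 45.98, 23.5 and 11.2 cpm with MC903 and at 2.18 and 1.16 cpm with ethanol. These overlapped wild-type MC903 skin, with a log2 fold change of 3.96 (SE 0.60, adjusted p = 0.0103). At Day_12 in TSLPR.KO mice Il1b was at 19.2, 12.3, 61.01 and 9.59 cpm with MC903 and at 0.990, 1.54 and 1.92 cpm with ethanol. Library 3 stood above the other 3, with a log2 fold change of 4.08 (SE 0.70, adjusted p = 0.00761). In BLT1.KO mice Il1b was at 79.3, 34.6 and 56.5 cpm with MC903 and at 0.582, 1.18 and 1.74 cpm with ethanol. The levels lay within those of wild-type MC903 skin, with a log2 fold change of 5.56 (SE 0.46, adjusted p = 6.77e-05).

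Markers of myeloid cells moved with Il1b in some groups and not in others, and their part in it was not tested. The summed level of 10 neutrophil markers at Day_8 ranged from 44.8 to 232 cpm with MC903 and from 11.9 to 27.6 with ethanol in uninjected wild-type skin, from 108 to 157 and from 10.8 to 23.3 with PBS, from 41.6 to 49.6 and from 18.7 to 29.6 in TSLPR.KO skin, and from 136 to 222 and from 35.03 to 146 in BLT1.KO skin. With aGr1 it was 140 to 222 with MC903 and 20.9 to 288 with ethanol, and Ly6g, an antigen of the antibody, had 0 or 1 count in every aGr1 library, as it also had in both cohort B wild-type MC903 libraries and all TSLPR.KO libraries of Day_8. By flow cytometry the study counted fewer neutrophils in MC903 skin with aGr1 than in uninjected and PBS-injected mice at Day_8. The marker sums here are RNA levels and do not count cells. The summed level of 10 monocyte and macrophage markers in uninjected wild-type skin was 694 to 1682 cpm with MC903 and 435 to 800 with ethanol, and with aGr1 it was 1120 to 2058 and 586 to 733. In uninjected wild-type skin at Day_8, 5 neutrophil markers were higher and 1 lower out of 10, and 7 of 10 monocyte and macrophage markers were higher and none lower. Of all genes, 12.2% were higher and 11.2% lower there, and 15.1% and 17.5% with aGr1. With aGr1, 7 of 9 neutrophil and 7 of 10 monocyte and macrophage markers tested were higher with MC903 and 1 monocyte or macrophage marker was lower, and the monocyte and macrophage sum was the highest of any MC903 group by its median (1480 cpm) while Il1b was the lowest of the MC903 groups at Day_8. No monocyte or macrophage marker was called at wild-type Day_5 (median log2 fold change 0.14) or in TSLPR.KO skin at Day_8 (-0.05, summed level 469.6 to 588 against 398 to 621 cpm), in both of which Il1b rose. Shares of all genes called higher and lower were 8.15% and 6.78% at wild-type Day_5 and 1.3% and 1.14% in TSLPR.KO skin at Day_8. At such shares a list of 10 genes can hold no call. Of the neutrophil markers tested, 4 of 9 were higher and 1 lower at wild-type Day_5 (median log2 fold change 1.21). In TSLPR.KO skin at Day_8, 2 of 7 were higher and 1 lower (0.78). In TSLPR.KO skin at Day_12 the neutrophil sum was 43.5 to 55.4 cpm with MC903 and 24.7 to 345 with ethanol.

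Il1a, the keratinocyte agonist that is active without cleavage, rose most at Day_5. At Day_1 Il1a was at 13.7, 13.5, 12.8 and 12.9 cpm with MC903 and at 12.5, 10.5, 10.6 and 12.1 cpm with ethanol. MC903 libraries were all slightly higher, which did not pass the test, with a log2 fold change of 0.20 (SE 0.10, adjusted p = 0.207). At Day_2 Il1a was at 31.2, 18.8 and 9.13 cpm with MC903 and at 10.8 and 8.86 cpm with ethanol. Library 3 lay within the ethanol range and the other 2 above it, with a log2 fold change of 1.01 (SE 0.54, adjusted p = 0.898) and, without library 3, 1.35 (adjusted p = 0.317). At Day_5 Il1a was at 75.9, 88.8 and 84.9 cpm with MC903 and at 10.7, 13.7 and 13.8 cpm with ethanol. The groups were far apart and even within themselves, with a log2 fold change of 2.71 (SE 0.17, adjusted p = 0.0001). At Day_8 Il1a was at 26.5, 32.1, 39.1, 29.1 and 42.2 cpm with MC903 and ranged from 9.63 to 17.7 cpm (median 15.3) with ethanol. All MC903 libraries lay above all ethanol libraries and all below the Day_5 MC903 libraries, with a log2 fold change of 1.21 (SE 0.18, adjusted p = 0.00038). In the other groups Il1a rose by 1.04 to 1.59 on the log2 scale with no overlap between treatments, from 1.04 (SE 0.23, adjusted p = 0.00781) with aGr1 to 1.59 (SE 0.24, adjusted p = 0.00134) in BLT1.KO skin. The call in PBS-injected skin (1.26, SE 0.21, adjusted p = 0.0297) did not survive leaving out 1 library in 4 of 5 fits, with adjusted p of 0.0817 to 0.26, namely without MC903 library 1 or 2 or ethanol library 1 or 3.

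Il18, the keratinocyte precursor cytokine that acts on lymphocytes, fell at Day_1 in uninjected wild-type skin. It was higher with MC903 at Day_5 and Day_8, and of these only Day_8 passed the edgeR test. At Day_1 Il18 was at 12.6, 12.8, 10.3 and 15.9 cpm with MC903 and at 19.4, 21.3, 19.02 and 22.3 cpm with ethanol. All MC903 libraries were below all ethanol libraries, and it fell, with a log2 fold change of -0.68 (SE 0.13, adjusted p = 0.0116). At Day_2 Il18 was at 21.9, 17.1 and 20.7 cpm with MC903 and at 23.6 and 26.04 cpm with ethanol. MC903 libraries were lower by a narrow gap, which did not pass the test, with a log2 fold change of -0.30 (SE 0.28, adjusted p = 0.934) and, without library 3, -0.34 (adjusted p = 0.726). At Day_5 Il18 was at 42.02, 49.9 and 42.9 cpm with MC903 and at 31.005, 32.04 and 21.4 cpm with ethanol. MC903 libraries were higher without overlap but the edgeR test was not passed, with a log2 fold change of 0.67 (SE 0.20, adjusted p = 0.0614). DESeq2 called this rise (0.66, adjusted p = 0.0207), and so did 1 edgeR fit over 4 days (0.62, adjusted p = 0.0235). At Day_8 Il18 was at 26.8, 32.1, 24.4, 32.1 and 20.7 cpm with MC903 and ranged from 15.1 to 23.6 cpm (median 19.2) with ethanol. The groups overlapped, and the rise passed the test in the full set, with a log2 fold change of 0.50 (SE 0.14, adjusted p = 0.0236). That call was lost in cohort A alone (0.51, adjusted p = 0.129), in cohort B alone (0.46, adjusted p = 0.177) and without MC903 library skin2 (0.38, adjusted p = 0.0671), ethanol library skin7 (0.44, adjusted p = 0.0583) or cohort B MC903 library 2 (0.46, adjusted p = 0.0677).

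In the other mice Il18 passed the test only in BLT1.KO skin, where it fell. In BLT1.KO mice Il18 was at 14.8, 20.7 and 16.6 cpm with MC903 and at 26.2, 24.02 and 25.01 cpm with ethanol. Here all MC903 libraries lay below all ethanol libraries and Il18 fell, with a log2 fold change of -0.58 (SE 0.16, adjusted p = 0.0255); the call was lost in 5 of 6 fits without 1 library (adjusted p 0.0587 to 0.0898, every library but MC903 library 2). In aGr1-injected mice Il18 was at 21.4, 18.3, 16.99 and 20.1 cpm with MC903 and at 17.9, 20.2, 29.5 and 28.5 cpm with ethanol. The treatments overlapped, with a log2 fold change of -0.34 (SE 0.17, adjusted p = 0.149). In PBS-injected mice Il18 was at 24.5 and 17.2 cpm with MC903 and at 21.7, 40.5 and 18.2 cpm with ethanol. The PBS groups overlapped too, with a log2 fold change of -0.35 (SE 0.38, adjusted p = 0.702), and the value became 0.07 without ethanol library 2. In TSLPR.KO mice at Day_8 Il18 was at 65.1, 38.8 and 42.8 cpm with MC903 and at 31.7 and 18.8 cpm with ethanol. MC903 libraries were higher without overlap, and the test was not passed, with a log2 fold change of 0.91 (SE 0.31, adjusted p = 0.2). At Day_12 in TSLPR.KO mice Il18 was at 40.1, 56.7, 95.6 and 68.99 cpm with MC903 and at 32.97, 38.5 and 22.4 cpm with ethanol. MC903 was again higher in every library, with a log2 fold change of 1.03 (SE 0.30, adjusted p = 0.061).

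Il1f8, the IL-36β agonist, rose in all comparisons from Day_5 on. At Day_1 Il1f8 was at 1.55, 1.30, 1.30 and 1.16 cpm with MC903 and at 1.498, 3.45, 2.60 and 3.12 cpm with ethanol. The first ethanol library fell among the MC903 libraries and the other 3 lay above them, with a log2 fold change of -1.02 (SE 0.26, adjusted p = 0.0328). That early fall was lost in 7 of the 8 fits without 1 library (adjusted p 0.0645 to 0.0855, every library but ethanol library 1). At Day_2 Il1f8 was at 8.85, 5.97 and 5.82 cpm with MC903 and at 2.40 and 2.01 cpm with ethanol. Every MC903 library was higher, with a log2 fold change of 1.65 (SE 0.44, adjusted p = 0.739) and, without library 3, 1.75 (adjusted p = 0.248). At Day_5 Il1f8 was at 35.8, 45.5 and 34.9 cpm with MC903 and at 2.26, 3.70 and 2.73 cpm with ethanol. At Day_8 Il1f8 was at 24.003, 22.1, 24.9, 29.7 and 23.9 cpm with MC903 and ranged from 2.08 to 3.76 cpm (median 2.93) with ethanol. Libraries of each group lay close together and treatments far apart on both days, with a log2 fold change of 3.74 (SE 0.24, adjusted p = 0.000124) at Day_5 and a log2 fold change of 3.06 (SE 0.16, adjusted p = 4.61e-08) at Day_8.

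**Figure D3:**
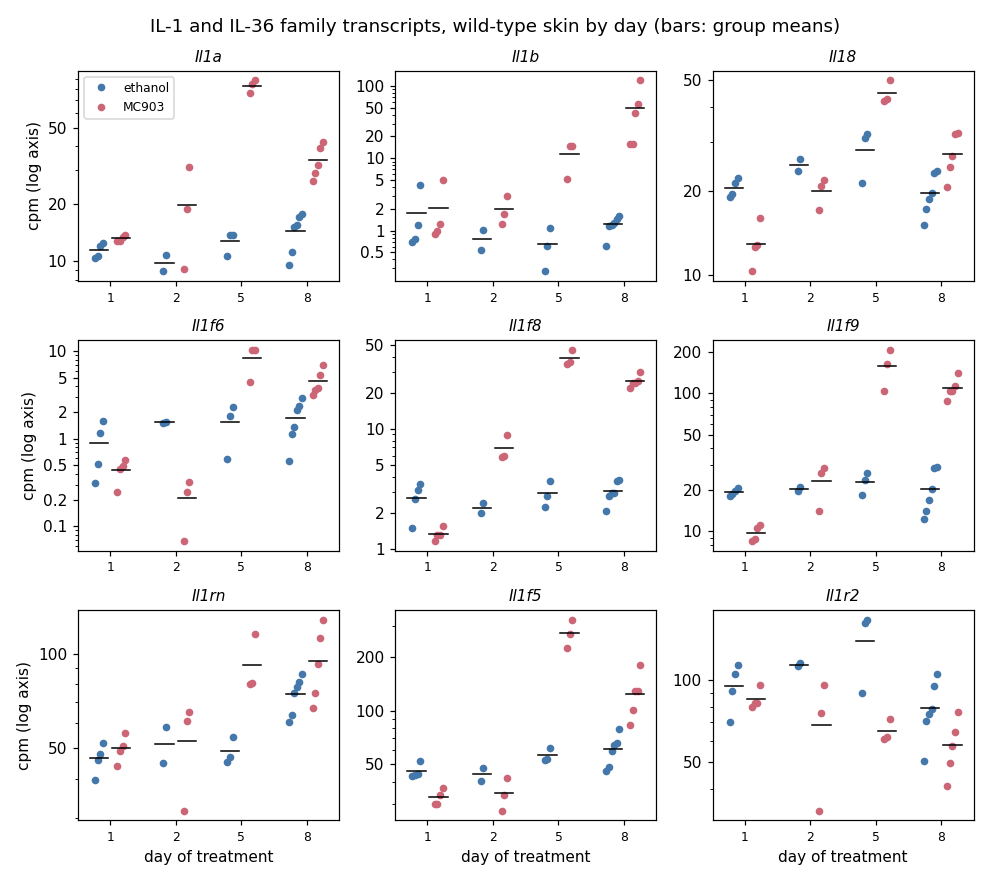
Levels of the 9 members in uninjected wild-type skin on days 1, 2, 5 and 8 (x axis), in cpm on a log axis, one point per library, bars at the group means. Most members separate by treatment at days 5 and 8, and Il1f9, Il18 and Il1f5 separate downward at day 1. The lowest Il1a, Il1f9, Il1rn and Il1r2 points of day 2 MC903 skin are library 3.

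Il1f8 rose in the injected and mutant mice as well. In aGr1-injected mice Il1f8 was at 72.97, 61.9, 59.8 and 83.3 cpm with MC903 and at 4.34, 5.91, 9.50 and 8.06 cpm with ethanol. In PBS-injected mice Il1f8 was at 75.1 and 38.7 cpm with MC903 and at 8.09, 9.03 and 5.77 cpm with ethanol. Both injected groups lay above uninjected wild-type mice of Day_8 in each treatment without overlap, with ethanol (highest uninjected 3.76 cpm) and with MC903 (highest uninjected 29.7 cpm). Uninjected wild-type MC903 skin of Day_5, at 34.9 to 45.5 cpm, overlapped the PBS-injected MC903 libraries. Uninjected TSLPR.KO skin of Day_12, at 3.54 to 7.36 cpm with ethanol and 42.8 to 73.4 cpm with MC903, overlapped both injected groups in each treatment. These differences in level were not tested, and injection cannot be told apart from other differences between sets of libraries. The MC903 effect was a log2 fold change of 3.30 (SE 0.24, adjusted p = 2.74e-05) with aGr1 and a log2 fold change of 2.91 (SE 0.34, adjusted p = 0.0084) with PBS. The PBS call was lost without ethanol library 1 (2.92, adjusted p = 0.105). In TSLPR.KO mice at Day_8 Il1f8 was at 44.1, 29.3 and 29.7 cpm with MC903 and at 3.42 and 1.65 cpm with ethanol. At Day_12 in TSLPR.KO mice Il1f8 was at 42.8, 67.9, 73.4 and 71.3 cpm with MC903 and at 6.34, 7.36 and 3.54 cpm with ethanol. The 4 Day_12 MC903 libraries held the highest Il1f8 of this genotype, except that library 1 lay just under the top Day_8 library, with a log2 fold change of 3.71 (SE 0.38, adjusted p = 0.00159) at Day_8 and a log2 fold change of 3.44 (SE 0.31, adjusted p = 0.000494) at Day_12. In BLT1.KO skin it rose from 2.60 to 3.89 cpm with ethanol to 21.2 to 33.9 cpm with MC903, with a log2 fold change of 3.06 (SE 0.24, adjusted p = 5.93e-05).

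Il1f9, the IL-36γ agonist and by its mean the most abundant agonist per kilobase in uninjected wild-type MC903 skin at Day_5 and Day_8, fell first and rose later. At Day_1 Il1f9 was at 8.79, 11.1, 8.49 and 10.6 cpm with MC903 and at 20.5, 18.7, 18.1 and 19.6 cpm with ethanol. All MC903 libraries were below all ethanol libraries, with a log2 fold change of -0.99 (SE 0.11, adjusted p = 0.00114), the smallest adjusted p of any member that day. At Day_2 Il1f9 was at 26.2, 28.7 and 13.97 cpm with MC903 and at 19.5 and 20.8 cpm with ethanol. Library 3 was lowest and the other 2 MC903 libraries were above ethanol, with a log2 fold change of 0.20 (SE 0.38, adjusted p = 0.971) and, without library 3, 0.46 (adjusted p = 0.644). At Day_5 Il1f9 was at 164, 206 and 103 cpm with MC903 and at 26.5, 23.5 and 18.3 cpm with ethanol. At Day_8 Il1f9 was at 104, 88.4, 141, 113.6 and 103 cpm with MC903 and ranged from 12.3 to 29.1 cpm (median 18.6) with ethanol. MC903 libraries were above ethanol without overlap on both days, with a log2 fold change of 2.79 (SE 0.29, adjusted p = 0.0011) at Day_5 and a log2 fold change of 2.54 (SE 0.21, adjusted p = 3.81e-06) at Day_8. In the other groups MC903 libraries were all above ethanol, and Il1f9 rose by 1.84 with aGr1 (adjusted p = 0.000512), 2.01 in TSLPR.KO skin at Day_12 (adjusted p = 0.00216) and 1.65 in BLT1.KO skin (adjusted p = 0.00107). In TSLPR.KO skin at Day_8 the rise of 1.48 (SE 0.28, adjusted p = 0.0277) was lost in 4 of 5 fits without 1 library (adjusted p 0.0596 to 0.12, every library but ethanol library 1). With PBS the value was 1.68 (SE 0.35), adjusted p = 0.0532.

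Il1f6, the IL-36α agonist, was the scarcest member per kilobase in MC903 skin at Day_8. At Day_1 Il1f6 was at 0.250, 0.576, 0.487 and 0.450 cpm with MC903 and at 0.513, 1.16, 0.315 and 1.58 cpm with ethanol. The groups overlapped, with a log2 fold change of -1.01 (SE 0.50, adjusted p = 0.204). At Day_2 Il1f6 was at 0.246, 0.0679 and 0.325 cpm with MC903 and at 1.52 and 1.57 cpm with ethanol. These MC903 values rest on 2 to 11 counts a library and lay below both ethanol libraries, with a log2 fold change of -2.82 (SE 0.74, adjusted p = 0.725) and, without library 3, -3.30 (adjusted p = 0.24). At Day_5 Il1f6 was at 10.4, 10.3 and 4.43 cpm with MC903 and at 1.81, 0.584 and 2.32 cpm with ethanol. MC903 was higher without overlap, with a log2 fold change of 2.42 (SE 0.52, adjusted p = 0.0202), a call lost without ethanol library 1 (2.57, adjusted p = 0.0594), MC903 library 1 (2.24, adjusted p = 0.0618) or MC903 library 2 (2.26, adjusted p = 0.0703). At Day_8 Il1f6 was at 5.34, 3.64, 6.96, 3.16 and 3.77 cpm with MC903 and ranged from 0.559 to 2.91 cpm (median 1.75) with ethanol. MC903 was again higher in each library, with a log2 fold change of 1.41 (SE 0.36, adjusted p = 0.0128), and the value was 1.56 in cohort A alone (adjusted p = 0.0946). At Day_12 in TSLPR.KO mice Il1f6 was at 6.78, 26.4, 33.9 and 10.7 cpm with MC903 and at 1.58, 1.28 and 0.371 cpm with ethanol. Here it made its largest change, with a log2 fold change of 4.13 (SE 0.69, adjusted p = 0.00694). The other 4 groups did not pass the test, with log2 fold changes of 0.90 with PBS, 0.40 with aGr1, 1.68 in TSLPR.KO skin at Day_8 and 1.36 in BLT1.KO skin and adjusted p from 0.0729 to 0.624.

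The antagonists differed from each other. Il1f5, which blocks the IL-36 receptor, fell at Day_1 and rose at Day_5 and Day_8. At Day_1 Il1f5 was at 29.8, 33.8, 30.1 and 36.7 cpm with MC903 and at 43.6, 52.2, 44.4 and 43.2 cpm with ethanol. MC903 libraries were all lower, with a log2 fold change of -0.51 (SE 0.10, adjusted p = 0.0128). At Day_2 Il1f5 was at 27.4, 41.99 and 33.8 cpm with MC903 and at 47.8 and 40.5 cpm with ethanol. The groups overlapped, with a log2 fold change of -0.34 (SE 0.30, adjusted p = 0.923) and, without library 3, -0.34 (adjusted p = 0.742). At Day_5 Il1f5 was at 269.7, 325 and 225 cpm with MC903 and at 53.1, 53.6 and 61.96 cpm with ethanol. At Day_8 Il1f5 was at 129.6, 83.4, 129.1, 182 and 101 cpm with MC903 and ranged from 46.1 to 79.5 cpm (median 62.1) with ethanol. It was higher with MC903 in every library on both days, with a log2 fold change of 2.28 (SE 0.19, adjusted p = 0.000392) and a log2 fold change of 1.06 (SE 0.20, adjusted p = 0.00231), though in cohort B alone the Day_8 value was 0.60 (adjusted p = 0.104). It also rose with aGr1 by 1.40 (adjusted p = 0.0016) and in TSLPR.KO skin by 1.75 at Day_8 (adjusted p = 0.0115, or 0.0605 without MC903 library 1) and 2.11 at Day_12 (adjusted p = 0.00176). In PBS-injected and BLT1.KO skin it was at 0.68 (adjusted p = 0.332) and 0.57 (adjusted p = 0.0647).

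Il1rn, which blocks the IL-1 receptor, rose by less than 1 on the log2 scale where it passed the test. At Day_5 Il1rn was at 80.1, 80.8 and 115.7 cpm with MC903 and at 54.2, 46.9 and 45.1 cpm with ethanol. MC903 libraries were higher without overlap, with a log2 fold change of 0.92 (SE 0.20, adjusted p = 0.0201), a call lost without ethanol library 2 (0.89, adjusted p = 0.0718). At Day_8 Il1rn was at 75.1, 92.7, 112.2, 66.99 and 128.3 cpm with MC903 and ranged from 60.5 to 86.4 cpm (median 76.6) with ethanol. The groups overlapped, with a log2 fold change of 0.32 (SE 0.16, adjusted p = 0.165). At Day_1 and Day_2 the treatments overlapped too, with log2 fold changes of 0.09 and 0.04 (0.30 at Day_2 without MC903 library 3). In BLT1.KO mice Il1rn was at 102, 104 and 97.2 cpm with MC903 and at 56.8, 56.9 and 75.8 cpm with ethanol. The rise in BLT1.KO skin passed the test, with a log2 fold change of 0.62 (SE 0.15, adjusted p = 0.0126). At Day_12 in TSLPR.KO mice Il1rn was at 83.2, 74.7, 77.4 and 77.3 cpm with MC903 and at 46.5, 59.9 and 39.5 cpm with ethanol. This rise of 0.66 (SE 0.16, adjusted p = 0.0357) was lost in 5 of 7 fits without 1 library (adjusted p 0.0696 to 0.111, all but those without MC903 library 3 or ethanol library 2). In PBS-injected, aGr1-injected and TSLPR.KO Day_8 skin the values were 0.40, -0.17 and 0.43, with adjusted p from 0.329 to 0.609.

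Il1r2, the decoy that takes up IL-1 without signalling, had a negative fitted value in all 9 comparisons and passed the test in 4. At Day_1 Il1r2 was at 95.9, 82.4, 79.9 and 82.5 cpm with MC903 and at 70.3, 113.9, 106 and 90.9 cpm with ethanol. The groups overlapped, with a log2 fold change of -0.18 (SE 0.14, adjusted p = 0.432). At Day_2 Il1r2 was at 75.9, 96.0 and 33.1 cpm with MC903 and at 115.6 and 112.4 cpm with ethanol. MC903 libraries were all lower, library 3 most of all, with a log2 fold change of -0.73 (SE 0.45, adjusted p = 0.898) and, without it, -0.40 (adjusted p = 0.683). At Day_5 Il1r2 was at 61.8, 60.8 and 71.8 cpm with MC903 and at 163, 167 and 89.4 cpm with ethanol. MC903 libraries were lower without overlap, with a log2 fold change of -1.11 (SE 0.26, adjusted p = 0.0271), but the call was lost in 5 of 6 fits without 1 library (adjusted p 0.057 to 0.0956, all but that without ethanol library 3). At Day_8 Il1r2 was at 40.9, 57.4, 76.7, 49.6 and 64.5 cpm with MC903 and ranged from 50.5 to 105 cpm (median 76.8) with ethanol. The groups overlapped, with a log2 fold change of -0.48 (SE 0.19, adjusted p = 0.0862).

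In BLT1.KO mice Il1r2 was at 68.6, 66.9 and 72.5 cpm with MC903 and at 122.3, 179.7 and 148 cpm with ethanol. In this genotype ethanol skin held more Il1r2 than any other ethanol group of that day, and the fall was the firmest, with a log2 fold change of -1.17 (SE 0.16, adjusted p = 0.000731), kept without any 1 library. In aGr1-injected mice Il1r2 was at 39.3, 35.8, 37.2 and 36.8 cpm with MC903 and at 43.8, 43.9, 61.5 and 65.2 cpm with ethanol. MC903 libraries were lower without overlap, with a log2 fold change of -0.55 (SE 0.14, adjusted p = 0.0149). In TSLPR.KO mice at Day_8 Il1r2 was at 39.3, 38.5 and 39.8 cpm with MC903 and at 109 and 70.7 cpm with ethanol. They were lower here too, with a log2 fold change of -1.24 (SE 0.23, adjusted p = 0.0259), a call lost in 4 of 5 fits without 1 library (adjusted p 0.0923 to 0.151, all but that without ethanol library 2). PBS-injected and TSLPR.KO Day_12 skin did not pass the test, at -0.60 (adjusted p = 0.367) and -0.73 (adjusted p = 0.0667).

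**Figure D4:**
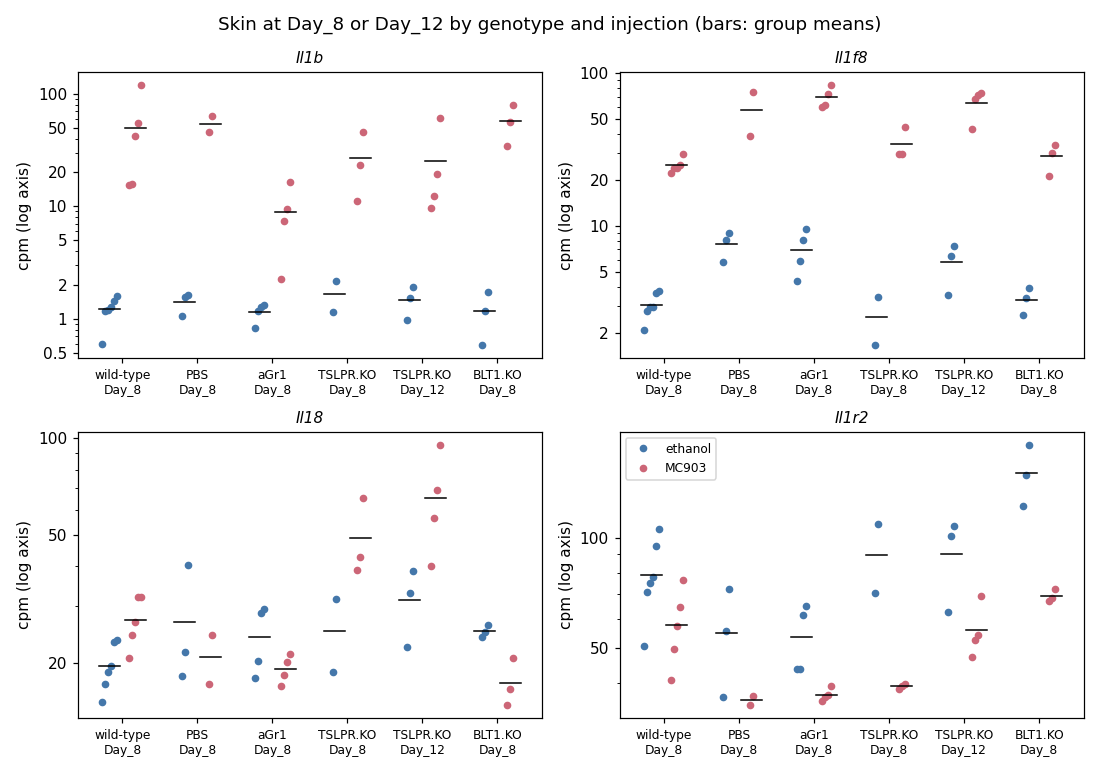
Levels of Il1b, Il1f8, Il18 and Il1r2 in cpm on a log axis for the 6 groups of mice at Day_8 or Day_12 (x axis), one point per library, bars at the group means. Il1b MC903 points are lowest with aGr1, from 2.25 to 16.3 cpm. Il1f8 lies high in both injected groups and in TSLPR.KO skin at Day_12. Il18 is lower with MC903 only in BLT1.KO skin without overlap, and Il1r2 is highest in BLT1.KO ethanol skin.

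Whether the MC903 effect itself differed between mice was tested as a difference of log2 fold changes against uninjected wild-type skin at Day_8. These tests share the same 11 wild-type libraries. With aGr1, 1 member differed (4.56% of all genes): the Il18 effect was lower by 0.83 on the log2 scale (SE 0.23, adjusted p = 0.044). That difference was 0.05 (adjusted p = 0.988) against PBS-injected mice in place of uninjected ones, -0.81 (adjusted p = 0.135) against cohort B alone, and lost in 14 of 19 fits without 1 library. The Il1b effect was lower with aGr1 by 2.26 on the log2 scale (SE 0.78), with an unadjusted p of 0.00957 and an adjusted p of 0.106 by edgeR, and DESeq2's adjusted p was 0.0425. With PBS-injected mice as reference, neither Il1b nor any other member was called by edgeR (62 of 26712 genes were). In BLT1.KO skin 1 member differed (6.95% of all genes): the Il18 effect was lower by 1.03 on the log2 scale (SE 0.22, adjusted p = 0.0101), in all 17 fits without 1 library, and with cohort B alone as reference by 0.97 (adjusted p = 0.0521).

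In TSLPR.KO skin no member's effect differed (0.177% of all genes), and 2 had an unadjusted p under 0.05, Il1f9 (-1.03, SE 0.37, adjusted p = 0.279) and Il1r2 (-0.72, SE 0.33, adjusted p = 0.384); DESeq2 called none of the 9. Between PBS-injected and uninjected mice none differed (0.0146% of all genes), with Il18 at an unadjusted p of 0.0329 (-0.85, SE 0.36) and none called by DESeq2. These results do not show that the effects were alike: for Il1b the TSLPR.KO difference was -1.19 with a standard error of 0.86. Between Day_5 and Day_8 in wild-type mice, a comparison chosen after seeing the data, 1 member differed (1.62% of all genes): the Il1a effect was higher at Day_5 by 1.496 (SE 0.27, adjusted p = 0.0136). Il1f5 was next, at 1.22 (SE 0.31, adjusted p = 0.0644), and DESeq2 called both. Between Day_12 and Day_8 in TSLPR.KO mice, also chosen after seeing the data, no member and no gene differed (0%), though 2028 genes had an unadjusted p under 0.05 and DESeq2 called 150, none of them a member; Il1f6 had the largest member value, 2.41 (SE 0.91, adjusted p = 0.598).

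Other genes of the pathway were described from lists in wild-type skin at Day_8. Of 11 further ligands and receptors of the family tested, 6 rose and 1 fell (median log2 fold change 0.63). Il33, the alarmin of the same family, rose from 16.1 ± 5.72 (SD, n = 6) to 194 ± 63.9 cpm (n = 5), its receptor Il1rl1 from 6.66 ± 1.66 to 24.2 ± 11.03 and the IL-18 receptor subunit Il18rap from 1.19 ± 0.52 to 11.5 ± 4.63, while Il1f10 (IL-38) fell from 9.92 ± 2.49 to 2.48 ± 2.09. Of 16 genes of processing and release, 10 rose and none fell (median 1.11), among them the inflammasome sensor Nlrp3 with a log2 fold change of 3.78 (SE 0.51), the inflammasome protein gene Mefv with 1.85 (SE 0.36), cathepsin S (Ctss) with 1.57 (SE 0.23) and caspase-11 (Casp4) with 1.46 (SE 0.26). Of 18 signalling genes 11 rose and 1 fell (median 0.36). Among them were Nfkbiz, a regulator of NF-kB, at 1.13 (SE 0.13) and the adaptor Myd88 at 1.03 (SE 0.16). The NF-kB family members Nfkb2 and Nfkb1 were at 1.07 (SE 0.11) and 0.84 (SE 0.10). Over all genes tested the median was -0.03, and 12.2% were called higher and 11.2% lower.

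Of the lists, genes that IL-1 or IL-36 is known to induce in keratinocytes moved furthest. At Day_8, 13 of 15 tested rose and none fell (12.2% and 11.2% of all genes), with a median log2 fold change of 4.92. The list was chosen with earlier results of these data known, so its counts beside those of all genes are a description only. Whether IL-1 or IL-36 induced these genes in this skin was not tested. The neutrophil chemokine Cxcl5 rose from 0.121 ± 0.175 to 11.1 ± 9.11 cpm, Cxcl2 from 0.257 ± 0.134 to 26.8 ± 25.2, and the acute phase gene Saa3 from 1.38 ± 0.97 to 145 ± 84.6. The granulocyte growth factor Csf3 had 0 counts in all 6 ethanol libraries and 0.327 ± 0.266 cpm with MC903. At Day_1 none of the genes of this list rose and 1 of 12 fell, at Day_2 none of 13 was called, and at Day_5 10 of 13 rose. Of all genes, 5.51% were higher and 7.47% lower at Day_1, 0% and 0% at Day_2, and 8.15% and 6.78% at Day_5. In TSLPR.KO skin at Day_8, 7 of 15 rose and no gene of the lists of further ligands and receptors, processing, and signalling was called in either direction, where 1.3% of all genes were higher and 1.14% lower. With aGr1, 12 of 16 rose and 1 fell (15.1% and 17.5% of all genes), and in BLT1.KO skin 12 of 16 rose and none fell (14.1% and 14.6%).

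Genes with the pattern most like each member were those with the smallest root mean square difference in log2 fold change over the 9 comparisons, among 17455 genes with a mean of at least 1 cpm. For Il1b they were Osm (0.68), Clec4e (0.70) and Gsta4 (0.90). For Il1a they were Avpi1 (0.33), Ywhaq (0.42) and Gm2423 (0.42), for Il1f8 Htr1b (0.70), Klk8 (0.75) and Krt14 (0.76), and for Il1f9 Kctd4 (0.45), Pglyrp3 (0.48) and Cbr3 (0.50). Late cornified envelope genes stood nearest Il1f6, namely Lce1h (0.78), Lce1f (0.82) and Lce1i (0.94), and Calm4 (0.43), Lce1i (0.46) and 2310005A03Rik (0.48) nearest Il1f5. For Il18 they were Serpina12, Lyrm4 and Tmem170b (0.42 to 0.43), for Il1rn Gm16372 (0.17) and Gm14388 (0.19), and for Il1r2 E130102H24Rik, Gm5276 and Slc23a3 (0.20 to 0.22). Within the family Il18 and Il1rn were the closest pair (0.60), Il1a was closest to Il1f5 (0.72) and Il1f9 (0.75), and Il1b to Il1f8 (1.44). Many genes outside the family were nearer. By likeness Il1rn ranked 909 for Il18, Il1f5 ranked 274 for Il1a and Il1f8 ranked 32 for Il1b. This likeness is a description over 9 comparisons with no test.

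Markers of other cell types also moved in the comparisons above, and their part in the members' changes was not tested. The summed level of 10 keratinocyte markers was higher in every MC903 than every ethanol library at Day_5 (20010 to 24790 against 10960 to 13290 cpm) and Day_8 (15020 to 28480 against 8999 to 12190), and at Day_1 it was lower in every MC903 library (7330 to 8995 against 9188 to 10580). Singly, 4 of the 10 keratinocyte markers rose and 3 fell at Day_8. At Day_1, when 4 members fell, 9 of 10 monocyte and macrophage markers fell as well, and 1 MC903 library reached a neutrophil marker sum of 197 cpm. With aGr1, 7 of 8 T cell markers fell with MC903 (summed level 9.28 to 15.9 against 16.2 to 125.5 cpm). All 8 skeletal muscle markers were lower with MC903 at Day_8 in uninjected wild-type and BLT1.KO skin. Of all genes, 7.47% were lower at Day_1, 17.5% with aGr1 and 14.6% in BLT1.KO skin. In uninjected wild-type skin at Day_8, 12.2% were higher and 11.2% lower.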

How the data were processed

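RNA was poly(A)-selected and sequenced from cheek skin. The authors deposited raw counts per gene, 1 file per library; the submitters' processing notes name TopHat2, Bowtie2, HTSeq and build mm10, while the annotation release and strand setting are not given in the sources used here. Of 46078 Ensembl identifiers, 45143 matched a symbol. The 5 tally rows (3 at 0), 9.88% to 20.5% of listed reads, were left out. Each comparison was fitted by itself with edgeR 4.0.16 (R 4.3.3), using TMM factors, genes with at least 10 counts in total and the quasi-likelihood test, adjusting p-values across the tested genes by Benjamini-Hochberg (threshold 0.05); wild-type Day_8 carried a cohort term, and differences between conditions were interaction terms. Levels are cpm on TMM-scaled totals (factors 0.632 to 1.20 over 61 libraries). More reads make a low value more precise, and members under 3 counts are at the floor.

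Groups came from the sample labels. Alternatives were DESeq2 1.42.0 and its size factors, other filters, a replicate block, 1 fit over 4 days, cohorts alone, other reference mice and leaving out each library; fits were tested on simulated data. The 9 members, the gene lists and the marker lists were chosen with earlier results of these data known. Outside the members, up to 4 genes per list with the largest change among those called at wild-type Day_8, the 3 genes nearest each member, and Crlf2 and Ltb4r1 were named; 1 gene near Il1rn is not reported here. No 2 libraries held identical counts. The 9 skin libraries of wild-type Day_12 were left out, since their values and labels were at odds.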

Additional observations from a re-analysis of the deposited data

Results flagged for a closer look

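In 5 of 63 groups of 4 to 10 libraries, 1 library lay apart from the rest by Dixon's test at the 95% level, which chance does in about 1 in 20 groups. Il1b was at 5.04 cpm in Day_1 MC903 library 2, with the others at 0.899 to 1.24, and at 4.25 cpm in Day_1 ethanol library 3, with the others at 0.699 to 1.20. Il1r2 was at 95.9 cpm in Day_1 MC903 library 1, with the others at 79.9 to 82.5. Il1f5 was at 52.2 cpm in Day_1 ethanol library 2, with the others at 43.2 to 44.4. Il1rn was at 23.6 cpm in aGr1 MC903 library 2, with the others at 37.1 to 38.2.

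The MC903 effect differed by a test of the difference in 3 cases, for 2 members. For Il18 the difference was -0.83 on the log2 scale with aGr1 (edgeR adjusted p = 0.044) and -1.03 in BLT1.KO skin (adjusted p = 0.0102), both against uninjected wild-type skin. Over all genes 4.56% and 6.95% differed in these tests. The aGr1 difference was 0.0479 (edgeR adjusted p = 0.988) against PBS-injected mice and was lost in 14 of 19 fits without 1 library. With cohort B alone as reference the BLT1.KO difference was -0.974 (edgeR adjusted p = 0.0521). For Il1a the difference was 1.496 between Day_5 and Day_8 in wild-type mice (edgeR adjusted p = 0.0136), where 1.62% of all genes differed.

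In the trigeminal ganglion, which holds the sensory neurons of the cheek, Il1f9 had a median of 1.92 cpm with MC903 and 1.08 cpm with ethanol in wild-type mice at Day_5, with every MC903 library above every ethanol library. It was 1 of 99 combinations of gene and group examined outside skin, and the difference was not tested. Every MC903 library was also above every ethanol library for Il1b in uninjected wild-type spinal cord at Day_8, Il1rn in PBS-injected ganglion and Il1f5 in TSLPR.KO ganglion at Day_8, where at least 1 MC903 library had 3 counts or fewer.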

How the results depend on the processing

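Over settings other than leaving out a library, 507 member values kept their direction and side of the threshold, 24 newly passed it, 15 no longer did and 1 reversed, and 77 counts of called members stayed within 1.5 times while 11 moved. The cause was not tested. At Day_2, where none was called, DESeq2 called 1 member, a replicate block 3 and 1 fit over 4 days 2, and over all genes these called 280, 876 and 995. For the aGr1 difference, DESeq2 called 2 members, and no filter, cohort B alone as reference, cohort B with the replicate block and PBS-injected mice as reference each called 0; against the PBS-injected mice the Il18 difference reversed to 0.0479. The TSLPR.KO difference with cohort B and the replicate block called 1, the BLT1.KO difference against cohort B 0, and Day_5 against Day_8 by DESeq2 2. Leaving out 1 library gave 1 to 2 called members for Day_5 against Day_8, 3 to 5 for TSLPR.KO Day_8, 0 to 1 for the aGr1 difference and 1 to 5 with PBS. It also turned the sign of 5 values that passed no test: Il18 with PBS ranged from -0.62 to 0.0742, Il1b at Day_1 from -0.72 to 1.19, Il1f9 at Day_2 from -0.00513 to 0.46, Il1rn at Day_2 from -0.16 to 0.30 and Il1rn with aGr1 from -0.32 to 0.0427. Same-numbered libraries correlated at -0.525 to 0.213 on average, and no comparison with 3 or more pairs had every pair over 0.1, so the numbers were not taken as pairs. Under the block Il1f8 at Day_1, Il1r2 at Day_5, Il1a with PBS, and Il1f6 and Il1rn at TSLPR.KO Day_12 lost their calls. Groups of 2 to 6 libraries limit every result, and Il1f6 and Il1b in ethanol skin rest on few counts. Counts over all genes also moved by over 1.5 times. DESeq2 called 2118 in place of 973 genes with PBS, 1313 in place of 593 in TSLPR.KO skin at Day_8 and 4009 in place of 2550 at Day_12, and for the differences 2515 in place of 1268 (aGr1), 548 in place of 48 (TSLPR.KO), 3157 in place of 1924 (BLT1.KO), 21 in place of 4 (PBS), 1533 in place of 441 (Day_5 against Day_8) and 150 in place of 0 (Day_12 against Day_8). The replicate block gave 1795 in place of 3213 at Day_1, 640 with PBS, 1272 and 548 in TSLPR.KO skin and 6 for Day_12 against Day_8, and no filter gave 27 at Day_2, 1401 in TSLPR.KO skin at Day_8, and 100, 7 and 4 for the TSLPR.KO, PBS and Day_12 differences. The fit over 4 days gave 460 at Day_1. With cohort B alone, Day_8 gave 2258 in place of 6125 (3858 with the block), and the differences 447 (aGr1), 5 (TSLPR.KO), 1010 (BLT1.KO), 0 (PBS) and 35 (Day_5), or 457, 521, 1100, 0 and 12 with the block. Against PBS-injected mice the aGr1 difference gave 62.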

Other observations

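Outside skin, levels are cpm without TMM scaling. In 27 spinal cord libraries Il18 was at a median of 12.5 cpm (8.52 to 19.2) and Il1f9 at 2.97 cpm (1.24 to 3.93), both above 3 counts in every library, while Il1f6, Il1f8 and Il1f5 had 0 counts in all 27. In 56 trigeminal ganglion libraries, those of wild-type Day_12 left out, Il18 was at a median of 3.07 cpm and Il1f9 at 1.97 cpm, again above 3 counts in every library. Il1f6 passed 3 counts in 1 of these libraries and Il1f8 in 3.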
